A study of Mus musculus with 55 samples.

Results

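The genes described here are those whose symbol starts with Kcn, the naming root for potassium channel subunits and several proteins that bind them. They were taken from probe sets annotated with a single gene symbol, keeping for each gene the probe set that read highest on average across the arrays. There were 92 such genes of 19938 on the array, read by 95 probe sets. Of these, 35 encode voltage-gated pore subunits, 15 inward rectifiers, 14 two-pore subunits, 8 calcium- or sodium-activated subunits and 17 auxiliary subunits or binding partners, and 3 are transcripts from the opposite strand of a channel gene. Tests were run on the 86 of them whose mean level passed a filter set at the 25th percentile of all genes, 6.44 on the log2 scale. Just inside it was Kcnmb1 at 6.48 and just outside it Kcna5 at 6.34. Kcna5, Kcnu1, Kcne1, Kcnk18, Kcnj1 and Kcne3 lay below the filter and entered no test.

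RNA came from the cerebellum of C57Bl/6 mouse pups at postnatal day 22, and each of the 55 arrays is 1 sample. The pups had been injected under the skin every day from postnatal day 4 to day 21 with chlorpyrifos oxon (CPO), which is formed in the body from the insecticide chlorpyrifos and inhibits acetylcholinesterase, or with its dimethyl sulfoxide vehicle at 1 uL/g. The 4 genotypes were Pon1+/+ (WT, with 6 vehicle arrays, 6 at 0.35 mg/kg/day and 3 at 0.5 mg/kg/day), Pon1-/- (KO, with 4, 5 and 3), and tgHuPON1Q192 and tgHuPON1R192 (Q192 and R192, each with 4, 5 and 5). The transgenes encode human paraoxonase 1, an esterase that hydrolyses CPO, with glutamine or arginine at its variable position. The sources used here give neither the promoter that drives them nor whether these mice also lack the mouse gene. The Pon1 probe set read 5.19 ± 0.24 (SD, n = 15) on the log2 scale in WT and 10.08 ± 0.19 (n = 12) in the arrays labelled KO, against 10.10 ± 0.14 (n = 14) in Q192 and 10.13 ± 0.11 (n = 14) in R192. This goes against a loss of the Pon1 signal in KO, and where the probe set lies relative to the deleted part was not examined. "KO" below means the arrays labelled KO.

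Potassium channels let potassium leave or enter the cell along its gradient, and by doing so they set the resting potential, end action potentials and limit how fast a neuron can fire. Voltage-gated channels open on depolarisation, calcium- and sodium-activated channels open when these ions rise inside the cell, inward rectifiers and two-pore channels act around rest, and auxiliary subunits change the gating and trafficking of the pores. In the cerebellum, granule neurons, Purkinje cells, glia and the choroid plexus each use a different set.

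Several arrays stood apart, and values without them are given beside the results they touch most. WT 0.35 replicates 1 and 2 had the lowest means of 30 brainstem and midbrain markers, 6.90 and 6.86, against 7.84 in the median array. The same pair and KO vehicle replicate 4 were the 3 arrays on which Xist, a transcript of the inactive X chromosome, lay above the Y-linked Eif2s3y. On them Xist read 11.06, 11.33 and 11.26 and Eif2s3y 4.83, 4.45 and 4.15, the pattern of female samples. Every WT vehicle array had Eif2s3y above Xist. In WT 0.35 this pattern and the low brainstem and midbrain means fall on the same arrays and cannot be told apart. WT vehicle replicate 4 had the lowest mean of 21 granule neuron markers, 9.33 against 10.56 in the median array, and the highest mean of 18 oligodendrocyte markers, 11.49. WT 0.5 replicate 2 had the next lowest granule neuron mean, 9.77. KO 0.35 replicate 3 and KO vehicle replicate 1 had the highest means of 11 choroid plexus and ependyma markers, 8.69 and 8.48 against 8.01 in the median array. KO vehicle replicate 1 was also low in oligodendrocyte markers, at 10.04 against 10.81 in the median array, and in brainstem and midbrain markers, at 7.35. By mean level the granule markers ran from Barhl1 at 7.59 to Vsnl1 at 13.12, with Gabra6 and Cbln3 among the highest. The Purkinje markers ran from Lhx5 at 6.90 to Pcp4 at 13.08, with Car8 among the highest. The mean of 11 forebrain markers was low on every array, from 6.79 to 7.29, although Ppp1r1b of that list read 9.34. In whole tissue, fewer cells of a type and less RNA per cell cannot be told apart.

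The median Kcn gene had a level of 7.82 on the log2 scale, and 47 of the 92 lay above the median of all genes. Only 6 were in the top 10%. Levels of different probe sets are not scaled to transcript length or probe affinity, so they are given as places on the array and not as amounts of RNA. Among the pore subunits the highest were Kcnk1 at 11.70 (range 11.35 to 12.10 over 55 arrays), a two-pore subunit, and Kcnd2 at 11.05 (10.26 to 11.63), which carries the fast inactivating A-type current of granule neurons. They lay at percentiles 98.8 and 96.7 of all genes. Next came Kcna2 at 10.17 and Kcna1 at 10.05, low-threshold subunits found along axons, Kcnj10 at 10.04, the main inward rectifier of glia, and Kcnma1 at 9.89, the pore of the large-conductance calcium-activated channel.

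Among the auxiliary proteins, several that bind those channels were also high. Kcnip4 at 10.94, Kcnip3 at 10.01 and Kcnip1 at 9.19 are calcium-binding partners of Kcnd channels, and Kcnab2 at 10.79 and Kcnab1 at 10.36 are cytoplasmic subunits of Kcna channels. The other members of the highest 20 were the G protein-gated rectifiers Kcnj3 (9.79) and Kcnj9 (9.14), Kcnj16 (9.29), which assembles with Kcnj10, and the choroid plexus rectifier Kcnj13 (9.08). They also held the two-pore subunits Kcnk10 (9.78) and Kcnk9 (9.41), the sodium-activated Kcnt1 (9.52), the fast voltage-gated Kcnc1 (9.45) and the small-conductance calcium-activated Kcnn2 (9.09). By family, the median level was 8.08 for voltage-gated subunits, 7.99 for calcium- or sodium-activated, 7.65 for auxiliary, 7.64 for two-pore and 7.44 for inward rectifiers. The lowest of all was Kcne3 at 5.26.

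**Figure D1:**
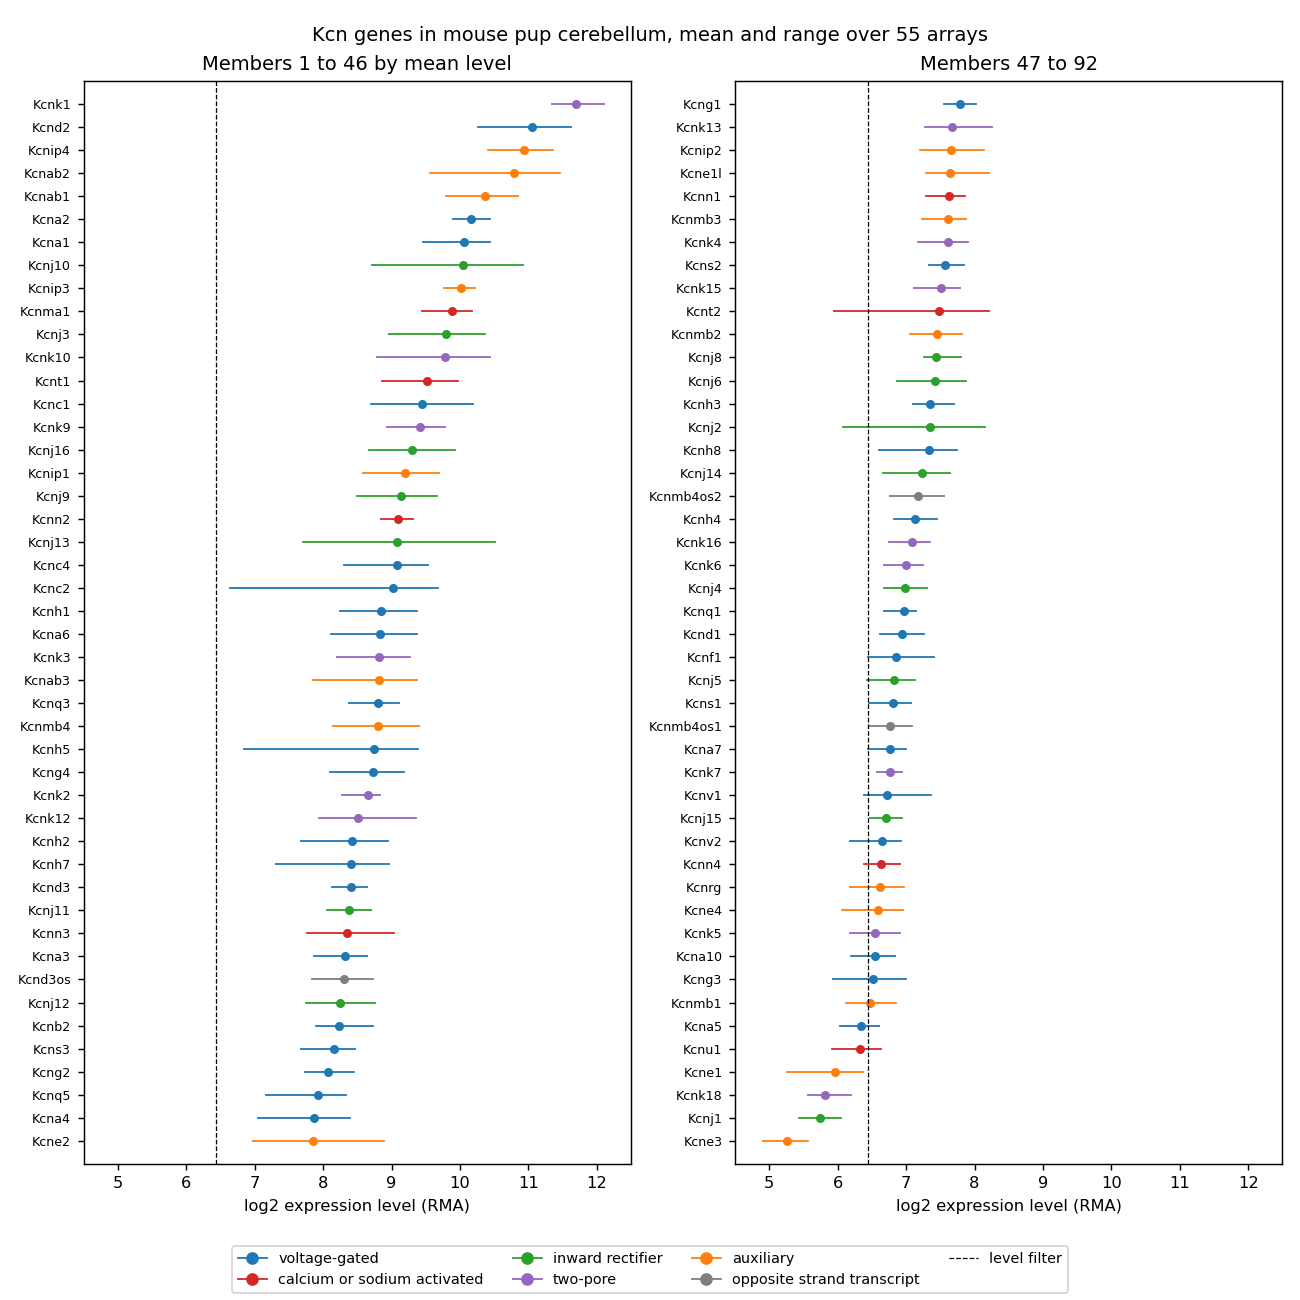
Mean (point) and range over 55 arrays (line) of the log2 expression level of each of the 92 Kcn genes, ordered by mean and coloured by family; the dashed line is the level filter at 6.44. Kcnk1 stands highest at 11.70, and the lines of Kcnj13, Kcnc2, Kcnh5, Kcnt2 and Kcnj2 are among the longest.

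The spread within groups differed widely between members. The median SD within groups was 0.149 on the log2 scale, and Kcnn2 had the smallest of all 92. The 5 largest belonged to Kcnj13 (0.529), Kcnc2 (0.528), Kcnh5 (0.364), Kcnj10 (0.358) and Kcnt2 (0.357), all at percentile 99.0 of all genes or above for this quantity. Kcnj10 and Kcnab2 moved over the arrays with the oligodendrocyte markers. Of the 10 arrays with the highest Kcnj10, 7 were among the 10 with the highest mean of these markers, and of the 10 lowest, 8 were among the 10 lowest. For Kcnab2 these counts were 8 and 7. Kcnd2 followed the granule neuron markers more closely, with 9 of the 10 highest and 9 of the 10 lowest arrays shared. These counts are descriptions, and the marker lists share arrays and normalisation with the channel genes.

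Across 19 comparisons, 3 Kcn genes passed limma's moderated test at an adjusted p under 0.05 (Benjamini and Hochberg's method over 14950 genes): Kcnk9, Kcnmb1 and Kcnj2. Kcnmb1 entered the test only through the group where it is high, as described with its values. The promoters of the latter 2 are shown first, since they differ in base composition. The sequences are the 250 bases before the start of the transcript, written 5′ to 3′ on the gene's strand, from RefSeq on GRCm38.p6, with CG dinucleotides in capitals. Kcnj2 has 14 of them and a GC content of 65.6%, Kcnmb1 has 1 and 50.8%.
Kcnj2, chr11:111065914-111066163, plus strand: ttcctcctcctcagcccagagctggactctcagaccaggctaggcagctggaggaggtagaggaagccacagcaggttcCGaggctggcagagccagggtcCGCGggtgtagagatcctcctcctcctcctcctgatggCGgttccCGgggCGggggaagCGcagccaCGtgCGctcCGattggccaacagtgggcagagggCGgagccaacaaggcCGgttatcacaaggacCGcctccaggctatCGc
Kcnmb1, chr11:33962763-33963012, plus strand: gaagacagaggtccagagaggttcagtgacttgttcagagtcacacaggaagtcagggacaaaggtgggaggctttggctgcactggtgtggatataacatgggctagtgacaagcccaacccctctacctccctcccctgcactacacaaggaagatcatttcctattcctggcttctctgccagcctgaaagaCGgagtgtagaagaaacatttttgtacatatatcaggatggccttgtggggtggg

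Kcnk9, an acid-sensitive two-pore channel that holds the resting potential of granule neurons and is expressed from the maternal allele in brain, was lower in R192 than in WT and than in KO. Over the 14 R192 arrays its level ran from 8.94 through a median of 9.25 to 9.48. The 15 WT arrays ran from 9.15 through 9.51 to 9.66, the 12 KO arrays from 9.23 through 9.47 to 9.78 and the 14 Q192 arrays from 9.12 through 9.42 to 9.74. R192 was lowest in each of the 3 treatments, with group means of 9.16 on vehicle, 9.31 at 0.35 and 9.23 at 0.5, but its arrays overlapped with those of every other genotype. On the mean of the 3 treatments the log2 difference was -0.23 (SE 0.059, adjusted p = 0.0405) from WT and -0.24 (SE 0.061, adjusted p = 0.0136) from KO. From Q192 it was -0.21 (SE 0.059), which missed the threshold (adjusted p = 0.279). These comparisons share the R192 arrays. Kcnk9 was the only one of 86 members called from WT, where 0.87% of all genes were called, and from KO, where 5.61% were. By unadjusted p under 0.05 there were 9 members from WT (12.9% of all genes) and 15 from KO (22.4%).

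Within each array date the estimates ran the same way. From WT the log2 difference was -0.37 on date 1 alone and -0.14 on date 2 alone (adjusted p = 0.0426 and 0.891), and from KO -0.32 and -0.18 (adjusted p = 0.142 and 0.283). Granule neuron markers were lower in R192 as well. All 21 of them lay below KO with a median difference of -0.16, and 19 of 21 below WT with a median of -0.08, where the median over all genes was 0.0055 and -0.0066. With the mean of these markers as a covariate Kcnk9 stood at -0.19 from KO (adjusted p = 0.0604) and -0.21 from WT (adjusted p = 0.0421). Whether granule neuron content accounts for the difference was not tested. Without the arrays of high Xist the difference from WT was -0.21 (adjusted p = 0.131) and that from KO -0.24 (adjusted p = 0.0137). The call from KO was kept in all 26 fits that left out 1 array. The call from WT was kept in 11 of 29, with adjusted p from 0.0109 to 0.185. It was lost without any 1 of WT vehicle replicates 1, 2, 5 and 6, WT 0.35 replicates 1 to 4, WT 0.5 replicates 1 and 3, R192 vehicle replicates 2 and 4, R192 0.35 replicates 1, 2 and 4, and R192 0.5 replicates 1, 3 and 5.

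Genes beside Kcnk9 on chromosome 15 were looked at after its values were seen. Trappc9, its next neighbour on one side, was lower in R192 than in KO by a log2 difference of -0.17 (adjusted p = 0.0453). In that comparison 5.61% of all genes were called. The Trappc9 difference from WT, -0.12, did not pass (adjusted p = 0.311). Col22a1, on the other side, had differences of 0.076 from KO and 0.079 from WT, neither called. Neighbours of Kcnmb1 and Kcnj2 on chromosome 11 were looked at as well. Dock2, near Kcnmb1, was higher in R192 than in KO by 0.36 (adjusted p = 0.000777). Beside Trappc9 and Dock2, no neighbour looked at was called in an R192 comparison with another genotype.

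Kcnmb1, a regulatory subunit of the large-conductance calcium-activated channel best known from smooth muscle, was higher in R192 than in Q192. Its mean over all arrays, 6.476, was just above the level filter of 6.440, and its mean over the 41 arrays outside R192 was 6.437, just below the filter. It therefore entered the test through R192, and its values are given as a description. The adjusted p-values and calls of Kcnmb1 below are not taken as support for a difference. They ran from 6.30 through a median of 6.60 to 6.86 in R192 and from 6.13 through 6.39 to 6.59 in Q192, where 10 of 14 arrays lay below the filter. WT ran from 6.33 to 6.56 and KO from 6.36 to 6.60, between the transgenic groups by their means. The log2 difference between R192 and Q192 was 0.22 (SE 0.047, adjusted p = 0.0320), and the arrays overlapped. It was the only member called there, where 0.0736% of all genes were, and by unadjusted p there were 10 members (9.97% of all genes). Against WT, R192 was higher by 0.13 (adjusted p = 0.207) and Q192 lower, at -0.09 (adjusted p = 0.983). On date 1 alone the difference was 0.26 and on date 2 alone 0.20, neither called (adjusted p = 0.922 and 0.825). Without the level filter it was not called (adjusted p = 0.0502), nor with arrays centred on their median (adjusted p = 0.0774) or with the first principal axis added to the fit (adjusted p = 0.0533). The call was kept in 17 of 28 fits without 1 array, with adjusted p from 0.00612 to 0.0983. It was lost without Q192 vehicle replicate 3, Q192 0.35 replicate 2, Q192 0.5 replicates 2, 4 or 5, R192 vehicle replicates 2 or 4, R192 0.35 replicates 2 or 4, or R192 0.5 replicates 1 or 5. Its pore partner Kcnma1 was at -0.09 in R192 against WT, without a call.

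Kcnj2, a strong inward rectifier that clamps cells near the potassium potential, passed the F test across the 12 groups (F = 3.56, adjusted p = 0.0365). It was the only member called, where 4.21% of all genes were, and by unadjusted p there were 19 members (22.3% of all genes). Its highest group mean was WT 0.5, with arrays at 7.62, 8.16 and 7.41, and its lowest WT 0.35, with 6 arrays from 6.08 through a median of 6.98 to 7.45. WT vehicle lay from 6.79 through 7.34 to 7.97, so both dosed WT groups overlapped with vehicle. The R192 0.35 arrays, at 7.35, 7.42, 7.37, 7.42 and 7.43, were the tightest group. WT 0.35 differed from WT vehicle by -0.51 (SE 0.151, adjusted p = 0.120) and WT 0.5 by 0.35 (SE 0.183, adjusted p = 0.250), neither called. The 2 lowest arrays were WT 0.35 replicates 1 and 2. Without the 3 arrays of high Xist, these 2 among them, the adjusted p of the F test was 0.134, with granule neuron markers as a covariate 0.292, and with brainstem and midbrain markers 0.170. It was 0.0530 without the date covariate, 0.0513 with arrays centred on their median, 0.0817 with the first principal axis, 0.538 on date 1 alone and 0.564 on date 2 alone. Leaving out 1 array lost the call for WT 0.35 replicates 1, 2 or 6, WT 0.5 replicate 2, WT vehicle replicate 2, R192 vehicle replicates 2 or 4, or R192 0.5 replicate 5.

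**Figure D2:**
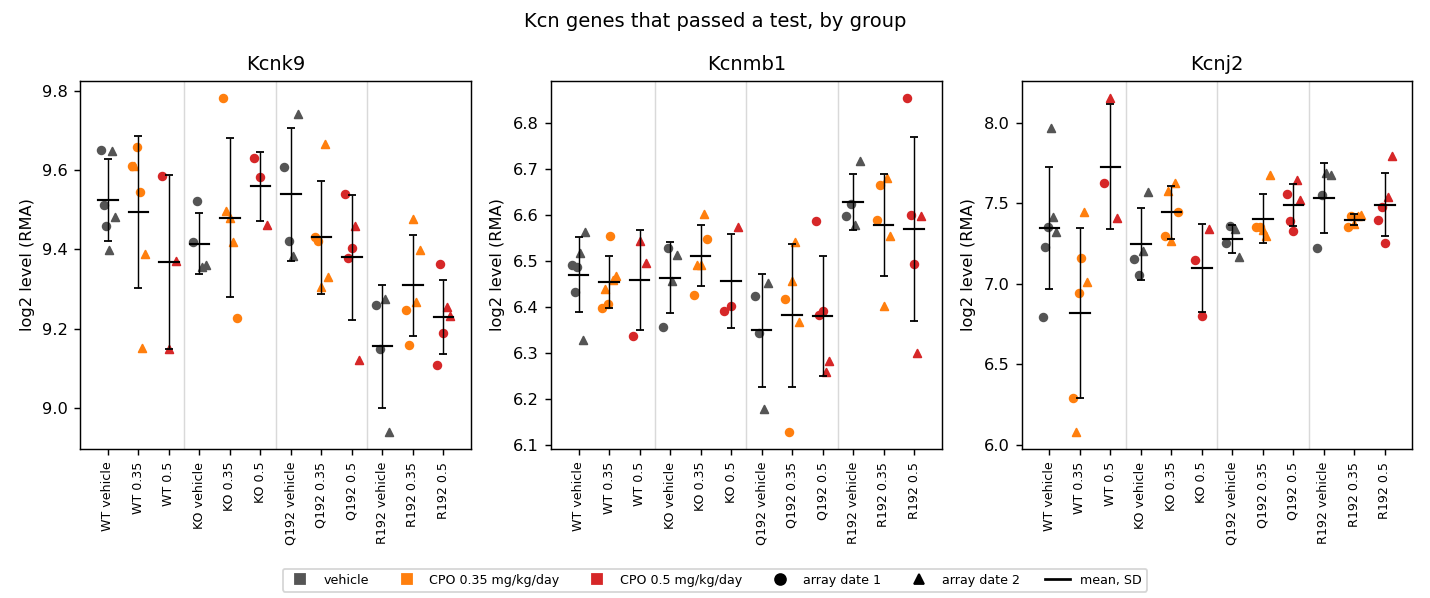
Log2 levels of Kcnk9, Kcnmb1 and Kcnj2 on every array, by genotype and treatment; bars are the group mean with its SD, and circles and triangles the 2 array dates. Kcnk9 group means in R192 lie between 9.16 and 9.31 and those of other groups at 9.37 or above, while the 2 lowest Kcnj2 arrays, at 6.08 and 6.29, are WT 0.35.

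No Kcn gene passed in any of the 8 comparisons of a CPO dose with vehicle within a genotype. Over all genes the share called was 0.00669% in WT 0.35, 1.04% in WT 0.5 and 0% in the other 6. At an unadjusted p under 0.05 the members numbered 27 of 86 in WT 0.35 (20.3% of all genes), 9 in WT 0.5 (21.9%), 6 in KO 0.35 (6.44%), 14 in KO 0.5 (12.8%), 1 in Q192 0.35 (2.05%), 8 in Q192 0.5 (13.2%), 3 in R192 0.35 (3.59%) and 0 in R192 0.5 (1.02%). On the mean of 4 genotypes the count was 0 by adjusted p and 1 by unadjusted p at each dose (1.83% and 4.84% of all genes by unadjusted p). The F test of genotype by dose, which asks whether the response to CPO differs between genotypes, called 0 of 86 members and 0% of all genes. By unadjusted p it gave 14 members and 17.9% of all genes. The smallest p there belonged to Kcnj2 (adjusted p = 0.245). The width of the intervals sets what could have been seen. The median 95% interval of a member reached 0.191 on the log2 scale to each side of its difference in WT 0.35 and 0.247 in KO 0.5. In R192 0.5, 81 of 86 intervals lay within 0.5 of 0, and in Q192 0.5, 63.

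**Figure D3:**
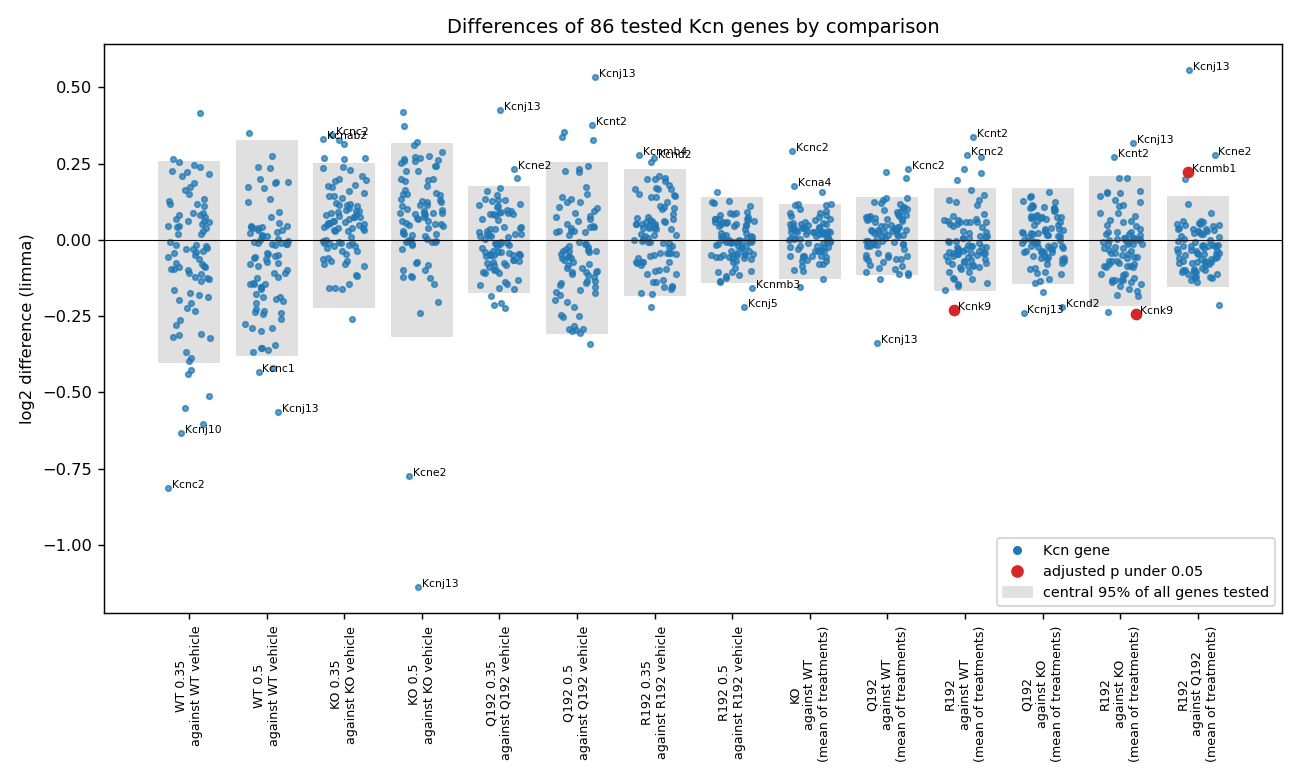
Log2 differences of the 86 tested Kcn genes in 14 comparisons, with grey bars for the central 95% of all genes tested and red points for adjusted p under 0.05; each comparison names its largest differences and its calls. Kcnk9 is red in both R192 comparisons with WT and KO, Kcnmb1 in R192 against Q192, and Kcnj13 at -1.14 in KO 0.5 is the largest difference drawn. Kcnmb1 passed the level filter only through its R192 arrays.

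In WT 0.35 the members with the smallest p had differences in both directions. Kcnip4 was at 0.26 (SE 0.084), Kcnk10 at 0.41 (SE 0.150) and the modifier Kcnv2 at 0.21 (SE 0.078). On the other side stood Kcnq5, a slow non-inactivating subunit, at -0.40 (SE 0.109), Kcnj2 at -0.51, and the mechanosensitive Kcnk2 at -0.19 (SE 0.061), all with adjusted p from 0.120 to 0.139. Differences fell below 0 for 51 of 86 members (52.4% of all genes), among them 23 of 34 voltage-gated subunits. Kcnc2, a subunit of fast-spiking neurons, had the lowest difference, -0.81 (SE 0.293, adjusted p = 0.136). Its WT 0.35 arrays ran from 6.64 through a median of 8.79 to 9.46, and those of WT vehicle from 8.20 through 9.26 to 9.58. Replicates 1 and 2 lay at 6.75 and 6.64, and the other 4 lay inside the vehicle range.

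The same 2 arrays were lowest for the voltage-gated Kcnh5, at 6.95 and 6.85 with all other WT 0.35 arrays at 8.59 or above. They were also lowest for Kcnt2, a sodium-activated subunit, at 5.95 and 6.20, and for Kcnq5, at 7.17 and 7.24. WT vehicle replicate 1 came next in each, at 8.20 for Kcnc2 and Kcnh5, 6.69 for Kcnt2 and 7.54 for Kcnq5. It also had a low brainstem and midbrain mean, 7.24. Against WT vehicle, 27 of 29 tested brainstem and midbrain markers lay below 0 in WT 0.35 with a median of -0.35, all 18 oligodendrocyte markers with a median of -0.43, and 20 of 21 granule neuron markers above 0 with a median of 0.35. At an unadjusted p under 0.05 there were 27 members with all arrays (20.3% of all genes). With brainstem and midbrain markers as a covariate there were 5, all of them among the 27, and without the arrays of high Xist 3, also among the 27. With oligodendrocyte markers there was 1, Kcnd3os, which was not among them. The shares of all genes in these reduced fits are not given here, so the fall is not shown to be particular to the members. Kcnq5 was then at -0.18 with the brainstem and midbrain covariate, -0.15 with the oligodendrocyte covariate and -0.19 when the high-Xist arrays were dropped. On array date 1 alone it was at -0.17 and on date 2 alone at -0.69. The same WT 0.35 arrays also held the lowest Kcnj10 of their group, at 9.22 and 8.72, where the other 4 ran from 9.95 to 10.23 and WT vehicle from 9.86 through a median of 10.31 to 10.92. Its difference was -0.63 (SE 0.206) and that of Kcnab2 -0.55 (SE 0.185), neither called (adjusted p = 0.125 for both). Without the arrays of high Xist Kcnc2 was at -0.01, Kcnh5 at 0.01, Kcnj10 at -0.26, Kcnab2 at -0.25 and Kcnj2 at -0.19, and Kcnip4 was at 0.18 and Kcnk10 at 0.25. The part of brainstem or oligodendrocyte content in these differences was not tested.

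The count of adjusted calls in WT 0.35 turned on single arrays. With all arrays it was 0, where 0.00669% of all genes were called. Dropping WT 0.35 replicate 4 gave 14 and dropping WT vehicle replicate 1 gave 12. It was 13 on date 2 alone and 0 on date 1 alone. Kcnab2, Kcnc2, Kcnip4, Kcnj10, Kcnk10, Kcnn3 and Kcnq5 were in all 3 of the longer lists. It was also 0 without the arrays of high Xist. The shares of all genes called in these other fits are not given here, so the rises are not shown to be particular to Kcn genes.

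**Figure D4:**
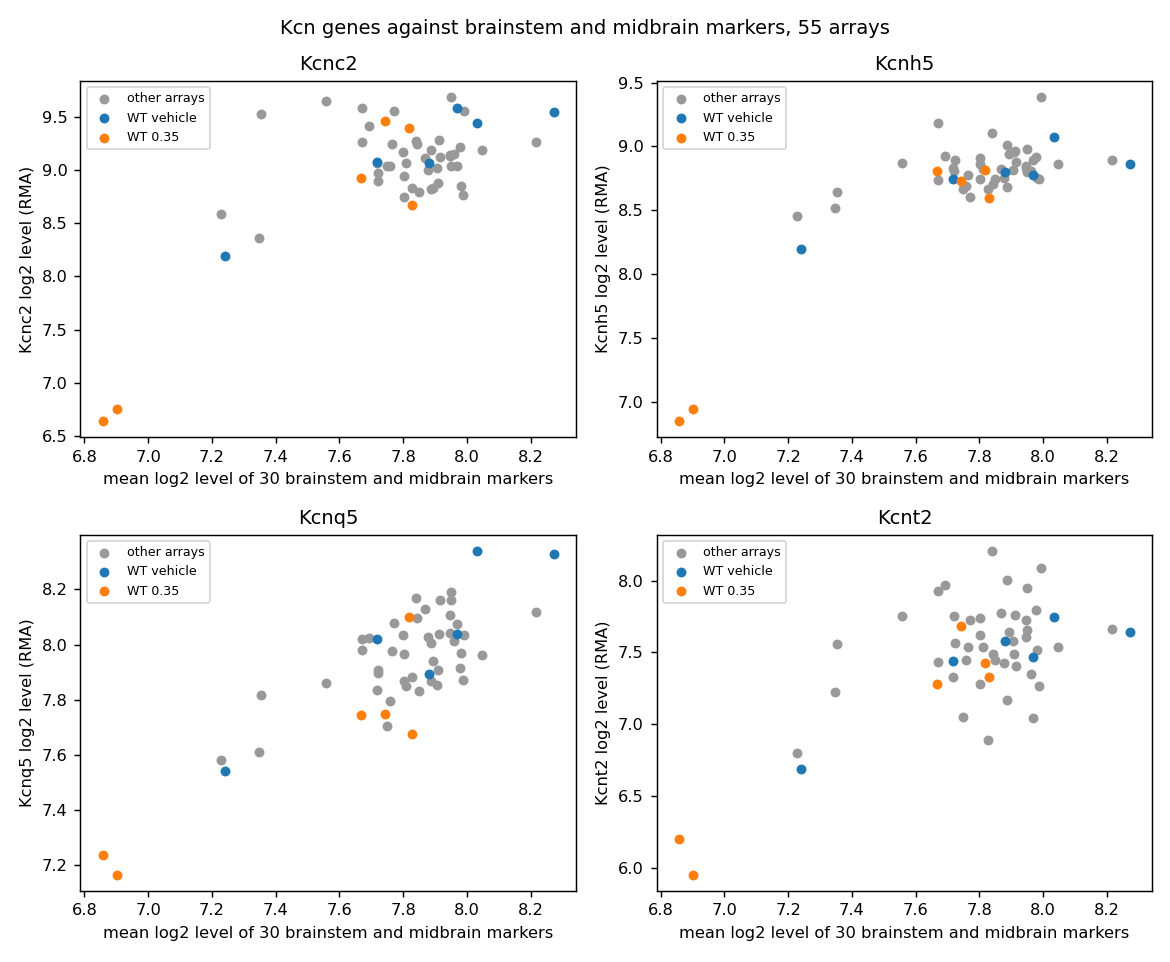
Log2 level of Kcnc2, Kcnh5, Kcnq5 and Kcnt2 on 55 arrays against the mean log2 level of 30 brainstem and midbrain markers, with WT 0.35 in orange and WT vehicle in blue. WT 0.35 replicates 1 and 2 are the lowest points on both axes of each panel, with marker means of 6.90 and 6.86, and the other 4 WT 0.35 arrays lie among the rest.

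In WT 0.5 the members with the smallest p lay below 0. Kcnd3, an A-type subunit, ran through 8.25, 8.22 and 8.23 at this dose and from 8.32 through a median of 8.50 to 8.63 on vehicle. All 3 treated arrays were below every vehicle array, and the difference of -0.26 (SE 0.085) did not pass (adjusted p = 0.0808). The share of all genes with such a separation was not counted, so nothing is read from it. Kcnj11, the pore of the ATP-sensitive channel, was at -0.29 (SE 0.101, adjusted p = 0.10) and Kcna1 at -0.35 (SE 0.134, adjusted p = 0.119). The 9 members at an unadjusted p under 0.05 were all below 0, where 12.8% of all genes were below 0 at that p and 9.09% above. Kcnip4 at 0.19 and Kcnh7 at 0.28 were the members with the smallest p above 0 after Kcnj2. Without WT vehicle replicate 4, the array lowest in granule neuron markers, 3 members passed (Kcnc1, Kcnd3 and Kcnj6). The share of all genes called in that fit is not given here. Without WT 0.5 replicate 2, the array next lowest in these markers, Kcna1 was at -0.22, Kcnh7 at 0.11 and Kcnj2 at 0.18. Granule neuron markers lay below 0 in 18 of 21 cases, with a median of -0.15, and their part in these differences was not tested.

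KO 0.5 held the largest difference of any Kcn gene in the dose comparisons, in a gene of the choroid plexus. Kcnj13 encodes an inward rectifier of that epithelium and Kcne2 a small single-pass subunit that assembles with channels there. Their promoters are printed because these genes shared their highest and lowest arrays. Kcne2 has another listed promoter, not shown. CG dinucleotides are in capitals, as is the TATAAA box found by script in Kcnj13. The letters TATAAA occurred, on either strand, in 2 of the 70 Kcn promoters in the RefSeq table and in 13% of all 27024.
Kcnj13, chr1:87394730-87394979, minus strand: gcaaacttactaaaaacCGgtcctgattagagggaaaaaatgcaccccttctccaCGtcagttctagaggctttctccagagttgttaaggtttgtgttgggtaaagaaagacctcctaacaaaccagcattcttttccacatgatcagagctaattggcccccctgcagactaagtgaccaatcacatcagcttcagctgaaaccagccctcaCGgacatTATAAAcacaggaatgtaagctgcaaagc
Kcne2, chr16:92292139-92292388, plus strand: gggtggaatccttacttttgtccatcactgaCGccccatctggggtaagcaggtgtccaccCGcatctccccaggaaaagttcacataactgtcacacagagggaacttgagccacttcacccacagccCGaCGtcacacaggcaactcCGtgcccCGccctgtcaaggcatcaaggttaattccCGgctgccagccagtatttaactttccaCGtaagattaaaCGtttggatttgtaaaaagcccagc

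Kcnj13 stood at 8.70, 7.71 and 8.51 in KO 0.5 and at 10.52, 8.69, 9.31 and 9.25 on KO vehicle. Kcne2 stood at 7.68, 6.98 and 7.43 in KO 0.5 and at 8.89, 7.56, 7.93 and 8.08 on KO vehicle. KO vehicle replicate 1 was the highest of all 55 arrays for both genes and KO 0.5 replicate 2 the lowest, and for each gene treated and vehicle arrays overlapped at the lowest vehicle array. The log2 difference was -1.14 (SE 0.403) for Kcnj13, the lowest among all genes tested in that comparison, and -0.77 (SE 0.261) for Kcne2. Neither passed (adjusted p = 0.387 for both). Without KO vehicle replicate 1 they were -0.72 and -0.48. With choroid plexus and ependyma markers as a covariate they were -0.53 and -0.41, and with array quality weights -0.65 and -0.36. Of these 11 markers, 8 lay below 0 in the comparison, with a median of -0.21, and the marker means ran from 7.71 to 7.94 in KO 0.5 and from 7.86 to 8.48 on KO vehicle. The part of choroid plexus content in the difference was not tested.

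Over all groups, 7 of the 10 arrays with the highest Kcnj13 were among the 10 with the highest choroid plexus and ependyma mean, and 7 of the 10 lowest among the 10 lowest. The counts were the same for Kcne2. KO vehicle replicate 1, KO 0.35 replicates 2 and 3 and R192 0.5 replicate 5 were the 4 highest arrays of both genes. They belong to 3 groups, 1 of them given vehicle alone. Kcnj13 was also at 0.56 (SE 0.200, adjusted p = 0.429) in R192 against Q192, where 9 of the 11 markers lay above 0.

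**Figure D5:**
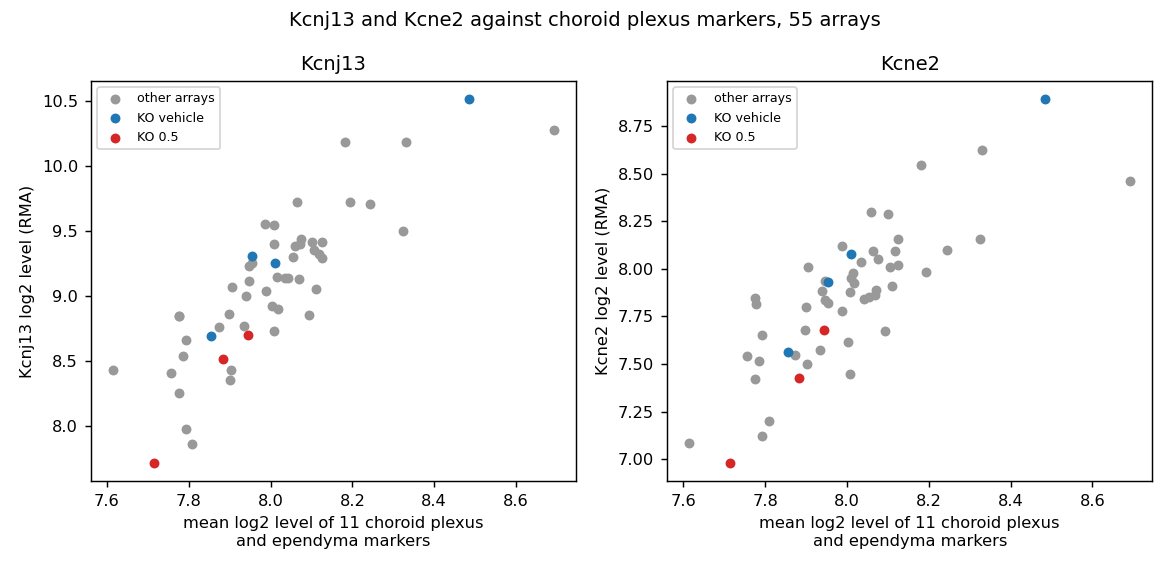
Log2 level of Kcnj13 and Kcne2 on 55 arrays against the mean log2 level of 11 choroid plexus and ependyma markers, with KO vehicle in blue and KO 0.5 in red. KO vehicle replicate 1, at 10.52 for Kcnj13, is the highest point for both genes and KO 0.5 replicate 2, at 7.71, the lowest.

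The differences of voltage-gated subunits from vehicle lay mostly above 0 in KO and mostly below 0 in WT. In KO 0.35, 30 of 34 lay above 0 (median 0.094), and in KO 0.5, 27 of 34 (median 0.112). Over all genes 58.8% and 56.7% lay above 0, with medians of 0.026 and 0.027. In WT 0.35, 23 of 34 lay below 0 (median -0.079) and in WT 0.5, 25 of 34 (median -0.080). Over all genes 52.4% and 53.6% lay below 0, with medians of -0.0078 and -0.013. Both doses of a genotype share its vehicle arrays, and members are not replicates, so these counts are descriptions. Of the inward rectifiers, 3 of 14 lay above 0 in KO 0.35. Brainstem and midbrain markers lay above 0 in 27 of 29 cases in KO 0.35, with a median of 0.23, and all 18 oligodendrocyte markers did too, with a median of 0.22. Their part in the counts was not tested. Among single members of KO 0.35, the smallest p above 0 belonged to Kcnk4 (0.23), Kcna3 (0.20) and Kcnh2 (0.33), and below 0 to Kcnip1 (-0.14), Kcnd2 (-0.16) and Kcnab1 (-0.12), with adjusted p from 0.660 to 0.722. Without KO vehicle replicate 1 Kcnk4 was at 0.13, Kcnh2 at 0.14 and Kcnab1 at -0.05. Without KO 0.35 replicate 5 Kcnd2 was at -0.05 and Kcnip1 at -0.07. In KO 0.5 the opposite-strand transcript Kcnmb4os2 (0.27), Kcng2 (0.26) and Kcnv1 (0.31) stood above 0, and Kcnb2 (-0.20) followed the choroid plexus pair below 0, with adjusted p from 0.387 to 0.396. Without KO 0.5 replicate 3 Kcnv1 was at 0.04, and without KO vehicle replicate 1 Kcnb2 was at -0.09 and Kcng2 at 0.16. Kcng2 and Kcnv1 encode subunits that are silent alone and modify other voltage-gated subunits.

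In the transgenic mice no dose gave a call. In Q192 0.35 the members with the smallest p were Kcnj4 (0.17), Kcnk2 (0.13) and Kcne4 (0.16) above 0, and Kcna2 (-0.16), Kcna1 (-0.21) and Kcnc1 (-0.18) below, all with an adjusted p of 0.999. In Q192 0.5 they were Kcnh7 (0.33), Kcna4 (0.35) and Kcnv1 (0.22), and Kcnh3 (-0.20), Kcnt1 (-0.28) and Kcna1 (-0.30), with adjusted p from 0.338 to 0.396. Granule neuron markers lay below 0 in 20 of 21 cases there, with a median of -0.33. In R192 0.35 they were Kcnd3 (0.17), Kcnk5 (0.19) and Kcnd2 (0.27), and Kcne4 (-0.22), Kcnn4 (-0.14) and Kcnv2 (-0.16), all at an adjusted p of 0.921. All 21 granule neuron markers lay above 0 there, with a median of 0.27. In R192 0.5 they were Kcnk5 (0.12), Kcna7 (0.11) and Kcnip3 (0.08), and Kcnj5 (-0.22), Kcnmb3 (-0.16) and Kcnj4 (-0.13), all at 1.00. On the mean of 4 genotypes Kcna10 (0.08), Kcnmb4 (0.13), Kcnmb4os1 (0.07), Kcnj16 (-0.12), Kcnk13 (-0.07) and Kcnj2 (-0.09) led at 0.35. At 0.5 these were Kcnv1 (0.19), Kcnma1 (0.09), Kcnh7 (0.12), Kcnc1 (-0.16), Kcnj11 (-0.10) and Kcnd3 (-0.07). All 12 had adjusted p of at least 0.991.

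The genotype comparisons without a call among members were KO against WT (0.375% of all genes called), Q192 against WT (0.455%) and Q192 against KO (0.401%). By unadjusted p they held 2, 4 and 5 members, against 4.88%, 4.7% and 9.53% of all genes. Between KO and WT the smallest p belonged to Kcnmb4os1 (-0.13), the X-linked accessory subunit Kcne1l (-0.15) and Kcnn1 (-0.08), and above 0 to Kcnb2 (0.12), Kcnd2 (0.16) and Kcnf1 (0.11), with adjusted p from 0.702 to 0.999. For Q192 against WT they were Kcnh7 (0.20), Kcns3 (0.12) and Kcnk13 (0.13), and Kcnn2 (-0.10), Kcnip4 (-0.13) and Kcnmb1. For Q192 against KO they were Kcng3 (0.16), Kcne1l (0.12) and Kcnk5 (0.10), and Kcnd2 (-0.22), Kcnmb1 (-0.11) and Kcnj3 (-0.17).

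In the R192 comparisons no other member passed. Against WT the smallest p beside those of Kcnk9 and Kcnmb1 belonged, by direction, to Kcnh7 (0.23, adjusted p = 0.260), Kcnt2 (0.34, adjusted p = 0.268), Kcnn2 (-0.12, adjusted p = 0.115) and Kcnk1 (-0.15, adjusted p = 0.182). Against KO, Kcnd3 was at -0.14 (adjusted p = 0.0627) and Kcnd2 at -0.24 (adjusted p = 0.0801), both A-type subunits, and Kcnrg, a cytoplasmic regulator, was at 0.15 (adjusted p = 0.0937), with Kcnmb2 at 0.16 (adjusted p = 0.121) and Kcnj16 at 0.20 (adjusted p = 0.123). Against Q192, Kcnrg (0.12, adjusted p = 0.484), Kcnd3 (-0.11) and Kcnmb4os2 (-0.13, adjusted p = 0.468 for both) followed Kcnmb1, Kcnj13 and Kcnk9. There 28 of 34 voltage-gated subunits lay below 0, with a median of -0.04, where 52.8% of all genes did. Against KO the number called rose from 1 to 6 without KO 0.35 replicate 5 (Kcnd2, Kcnd3, Kcnk1, Kcnk9, Kcnmb2 and Kcnrg), to 3 without KO vehicle replicate 4, and to 2 without KO vehicle replicate 1, R192 vehicle replicate 3, R192 0.35 replicate 5 or R192 0.5 replicate 5. Kcnk9 was in each of these lists. The shares of all genes called in these fits are not given here, so the rises are not shown to be particular to Kcn genes.

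A second list held proteins that work beside these channels: scaffolds, anchors, transporters and pacemaker channels, 28 of them tested. In R192 against KO, where 5.61% of all genes were called, 3 of the 28 were called, all lower: Dpp6, an accessory subunit of Kcnd channels, at -0.28 (SE 0.062, adjusted p = 0.00563), Atp1b1, a sodium pump subunit, at -0.16 (adjusted p = 0.0124), and Cntnap2, which clusters Kcna channels beside the nodes of axons, at -0.16 (adjusted p = 0.0236). Cntnap2 was also lower in R192 than in WT, at -0.16 (adjusted p = 0.0444), the only 1 of the 28 called there (0.87% of all genes). The F test across the 12 groups called 5 of the 28 (4.21% of all genes): Abcc8, Cntn2, Cntnap1, Cntnap2 and Dpp6. All 21 granule neuron markers lay below KO in R192, and their part in the partner differences was not tested. The list was chosen with earlier results of these data known, so these counts are descriptions and not support for an excess among partners. The partner calls were not refitted without single arrays or under other settings. No partner was called in a dose comparison.

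Kcnd3os, Kcnmb4os1 and Kcnmb4os2 are named as opposite-strand transcripts of Kcnd3 and Kcnmb4, and whether their signals are separate from those genes was not examined. For the 3 genes with 2 probe sets, both were compared. Those of Kcna2 read 10.17 and 10.08 and differed by -0.13 and -0.18 in WT 0.35. Those of Kcnma1 read 9.89 and 5.01 and went opposite ways there, 0.13 and -0.18. The Kcnh8 pair, at 7.33 and 6.79, gave -0.20 and -0.07. The second probe sets were not tested, and that of Kcnma1 lies below the level filter.

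Promoters of 70 of the 92 genes were in the RefSeq table. Over the 250 bases before the start, the ratio of CG dinucleotides to the number the base composition would give was above 0.6 in 30% of them and in 34.5% of all 27024 promoters. It was above 0.6 in 11 of 24 voltage-gated, 3 of 11 two-pore, 3 of 13 inward rectifier and 2 of 15 auxiliary promoters. The median GC content was 58.8% in Kcn promoters and 52.0% in all. The second TATAAA match was in Kcnj9.

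The array date served as a technical contrast. No member was called between date 2 and date 1, where 0.1% of all genes were. At an unadjusted p under 0.05 there were 15 members (14.8% of all genes). The smallest p belonged to Kcnj16 (0.18), Kcnj2 (0.18) and Kcnn3 (0.14) above 0 and Kcnd2 (-0.17), Kcnh1 (-0.15) and Kcnk10 (-0.19) below 0. All 21 granule neuron markers lay below 0 on date 2, with a median of -0.20. Both dates occur in every group.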

How the data were processed

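Each cerebellum sample was hybridised to 1 Affymetrix Mouse Gene 1.0 ST array. The authors made the deposited values with RMA in Expression Console 1.1, as the submitters' processing notes say. RMA corrects background, gives all arrays 1 distribution and summarises probes. The sources used here do not name the log base, and the deposited values were read as log2 levels. They ranged from 1.15 to 14.80.

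No further normalisation was applied. Genes below the 25th percentile of level (6.44) and 3 sex-linked genes were left out, which gave 14950 genes. One limma 3.58.1 fit in R 4.3.3 over 55 arrays had a mean for each of 12 groups, array date (2 dates) as a covariate, and the number before the point in the description as a correlated block (36 numbers, correlation 0.131), with a variance trend and 42 residual degrees of freedom. Each of 19 comparisons had its own Benjamini-Hochberg adjustment over all genes, with calls at 0.05. The labels do not say what the number means or that arrays are separate animals, so the p-values reflect the spread between these samples alone, which may be technical. The number of arrays limits the precision.

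Named are, per comparison, the members that passed and otherwise the 3 in each direction with the smallest p, the 20 with the highest level and the 5 of largest spread. The members and lists were chosen with earlier results of these data known. The fit was run on simulated arrays with known differences. Their noise was independent, so the correlated block and shifts in marker content were not tested. Alternatives left out the date, block, filter, trend or single arrays, or added weights or marker covariates. Replicate numbers did not pair arrays: the mean correlation of deviations was -0.016 over 265 pairs with the same number and 0.0039 over 1116 others. No arrays within a group were identical (smallest root mean square difference 0.240). All 92 members matched the GRCm38.p6 gene table. Figures were drawn with matplotlib in Python.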

Additional observations from a re-analysis of the deposited data

Results flagged for a closer look

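Single arrays stood apart from the rest of their group, by the gap to the nearest array over the range, in 5 of 120 combinations of 12 named genes and the 10 groups of 4 or more arrays. Chance alone gives about 1 in 20. Kcnc2 and Kcnt2 were both low on WT vehicle replicate 1, at 8.20 (nearest array 9.07) and 6.69 (nearest 7.44), the array that also has a low brainstem and midbrain mean. Kcnc2 was low on R192 vehicle replicate 2, at 8.83 against 9.22. Kcne2 was high on R192 0.5 replicate 5, at 8.55 against 8.02, and Kcnj2 on Q192 0.35 replicate 5, at 7.67 against 7.36. The F test of genotype by dose called 0 Kcn genes.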

How the results depend on the processing

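Of 19 counts of called Kcn genes, 11 stayed within 1.5 times under every alternative and every left-out array, and all 11 were 0 throughout. Every count that held a call moved. For R192 against WT (1 call) the count was 0 without the date covariate, with arrays centred on their median, without the level filter, on date 2 alone, with the first principal axis added and with the high-Xist arrays left out, and 7 with array quality weights. Without 1 array it was 0 to 2. For R192 against KO (1 call) it was 0 on date 1 alone, on date 2 alone and with granule neuron markers, 2 with centring, above the 50th percentile and with choroid plexus markers, 3 with brainstem and midbrain markers and with the first principal axis, 4 without the arrays of high Xist, 5 with arrays independent, 6 with only the groups compared and with oligodendrocyte markers, and 24 with weights. Without 1 array it was 1 to 6. For R192 against Q192 (1 call) it was 0 with centring, without the filter, above the 50th percentile, where Kcnmb1 was not tested, on date 1 or date 2 alone and with the first principal axis, and 2 with weights and with only the groups compared. Without 1 array it was 0 to 1. The call of the main fit there is Kcnmb1, which passed the level filter only through its R192 arrays. For the F test across 12 groups (1 call) it was 0 without the date, with centring, on either date alone, with granule or brainstem markers and with the high-Xist arrays left out, 2 with choroid plexus markers, 3 with oligodendrocyte markers, 4 with arrays independent and 24 with weights. With replicate numbers as a block it was 3, and this block moved no other count past 1.5 times. Leaving out 1 array gave 0 to 9, the 9 without WT vehicle replicate 4. For WT 0.35 (0 calls) it was 3 with arrays independent, 13 on date 2 alone and 5 with choroid plexus markers, and 0 to 14 without 1 array. For WT 0.5 (0 calls) it was 9 with weights, 1 with granule and 2 with brainstem markers, and 0 to 3 without 1 array. Weights gave 2 for Q192 against KO and 2 for genotype by dose. The shares of all genes called under these settings are not given here, so the shifts are not shown to be particular to Kcn genes. The cause of these shifts was not tested. The weights give arrays unequal influence, and the covariate fits and the fit on arrays of Xist below Eif2s3y were partly chosen after seeing the data.

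Of single named values, 9 changed sign under 1 setting: Kcnn3 by date to -0.043 with the replicate block, Kcnn1 in KO against WT to 0.0092 with weights, Kcna7 in R192 0.5 to -0.0084 and Kcnmb4 at 0.35 on the mean of genotypes to -0.024 on date 1 alone, Kcnd2 in KO 0.35 to 0.0071, Kcnk5 in R192 0.5 to -0.025 and Kcnj4 in R192 0.5 to 0.039 on date 2 alone, Kcnj2 at 0.35 on the mean of genotypes to 0.0055 without the arrays of high Xist, and Kcnab1 in KO 0.35 to 0.0048 with brainstem markers. None had passed. The alternative that compares Xist with Ddx3y was not run, since Ddx3y is not among the single-symbol genes, and Eif2s3y was used. Leaving out 1 array moved 28 of the 102 named differences by over 1.5 times, none of them called. Signal over background is not recorded in these values, so members near the level filter are limited by it.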
